A study of Mus musculus with 6 samples.

Results

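The endothelin system was followed through its 7 genes, taken by symbol from a table of read counts for 54532 genes. These were the ligand genes Edn1, Edn2 and Edn3, the converting enzyme genes Ece1 and Ece2, and the receptor genes Ednra and Ednrb. RNA-seq was compared between 3 libraries of wild-type female and 3 of wild-type male mice, made from untreated primary cultures named as aortic endothelial cells (MAEC), to ask how the sexes differ. The culture medium of all 6 was F-12, supplied with serum, endothelial growth factors and heparin, and messenger RNA was selected by its poly-A tail. Neither strain nor age of the mice is given in the labels. Nor do the labels say whether each library had its own mouse or dish, so a p-value reflects the spread among these 6 samples only, which may be technical.

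Endothelins are peptides that constrict or relax blood vessels. Each is cut from a longer precursor, first by furin-type proteases and then by an endothelin-converting enzyme. In the vessel wall endothelial cells are known as the main source of endothelin-1. The A receptor on smooth muscle drives contraction and growth, while the B receptor on endothelium releases nitric oxide and prostacyclin and clears the peptide. The same receptors guide neural crest cells in the embryo, the A receptor in the face and heart outflow and the B receptor in pigment cells and gut neurons.

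In these cultures the B receptor gene was 34.6-fold higher and the A receptor gene 2.17-fold lower in female than in male libraries, on the fitted scale. Ece1 was abundant in both sexes, with no detectable difference. Edn1, the endothelial ligand, was near the limit of detection everywhere, and Edn2 and Edn3 had 0 counts in all 6 libraries.

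Library totals ran from 17410996 to 22993574 counts. The label of the cells was checked against 16 endothelial markers, of which 14 stayed under 1 CPM (counts relative to the TMM-scaled library total) in every library. Cdh5, Tie1, Cldn5 and Robo4 had 0 counts in all 6, and Pecam1 averaged 0.785 CPM in female against 0.554 CPM in male libraries. The summed level of 9 fibroblast markers was 11638 to 12504 CPM in female libraries, with 6196 to 6852 CPM in male ones, with Pdgfra at 938 and 680. The cultures are therefore named below by sex only. Least like the rest of its sex was male replicate 3, with a correlation of log2 CPM of 0.966 with male replicate 1 against at least 0.983 among female libraries.

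Genes were tested with edgeR over the whole table, and a gene was called at a Benjamini-Hochberg adjusted p under 0.05. Each fold change is given as log2, female over male, ± SE. Of the 7 genes, 5 passed the filter on low counts, which asked for about 0.471 CPM in at least 3 libraries. Ednrb (3 female and 2 male libraries at that level) and Edn1 (3 and 1) would not have passed on male libraries alone. Of these, 1 was called higher (Ednrb) and 1 lower (Ednra), where 18.3% of the 14932 genes tested were called, 9.68% higher and 8.62% lower. The sexes did not overlap in CPM for 4 of the 5 tested genes, against 35.9% of all genes tested. The median log2 fold change was -0.02 over the 5 genes and -0.01 over all genes tested.

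**Figure D1:**
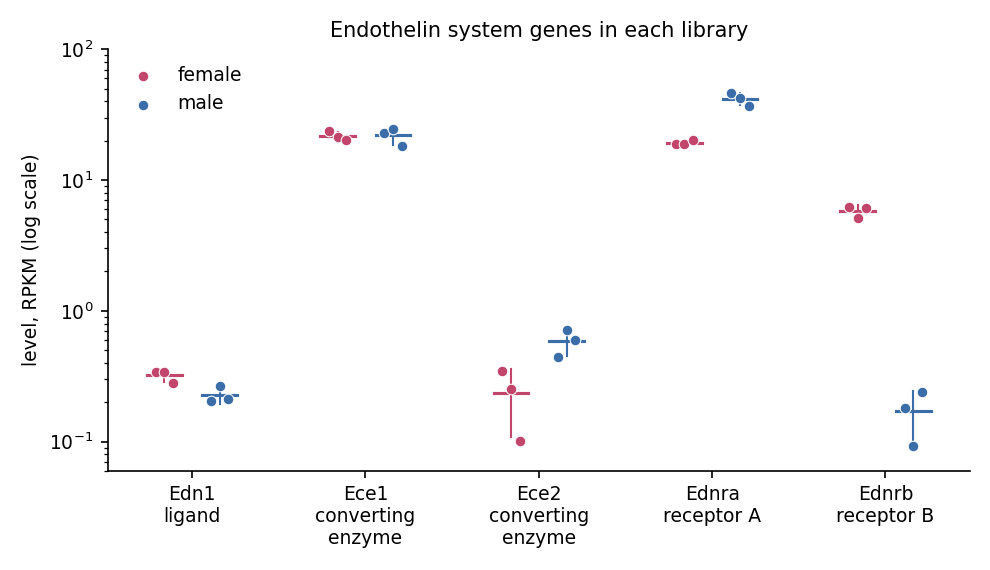
Level of the 5 detected genes in each library, as RPKM (reads per kilobase of gene, from CPM, log axis), with the mean as a horizontal line and the SD as a vertical line (n = 3 per sex). Female points lie above male points for Ednrb and below them for Ednra, while those of Ece1 overlap. Edn2 and Edn3, with 0 counts, are not drawn.

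Among the ligands, Edn1 (chromosome 13, 42301476 to 42307990) encodes the precursor of endothelin-1, the form endothelial cells are known to release. It had 16, 13 and 14 counts in the female libraries and 9, 13 and 8 in the male libraries, or 0.686 ± 0.0767 and 0.488 ± 0.0748 CPM (SD, n = 3). Each female library stood above each male one in CPM, by a narrow margin of 0.598 against 0.574. The log2 fold change of 0.48 ± 0.48 was not called (edgeR adjusted p = 0.566). Its 95% interval of -0.60 to 1.56 covers no change as well as a more than 2-fold excess, so a difference was not detectable at this depth. From the summed counts alone, 43 against 30, the ratio of female to male was 1.38 with an exact 95% counting interval of 0.848 to 2.28. Antisense Gm47118 overlaps Edn1 over 1.64% of its exon bases and had 0 counts in every library.

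Edn2 (chromosome 4, 120161206 to 120167360) and Edn3 (chromosome 2, 174760619 to 174784042) encode the other endothelins, the latter known as the ligand of the B receptor in pigment cell and gut neuron precursors. With 3 counts as the limit that 0 counts allow, Edn2 could have reached 0.128 to 0.171 CPM in a library, and the same range holds for Edn3. Per gene length these limits were 0.0876 to 0.117 RPKM for Edn2 and 0.0312 to 0.0415 RPKM for Edn3. Such limits, and the counting intervals given for summed counts, cover counting error only.

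The start of Edn1 is shown because the factors known to act on the promoter of this gene were measured in the same libraries. The window runs from 250 bases before to 50 after the RefSeq start (GRCm38.p6, chr13:42301226-42301525, plus strand). Capitals mark, in order, a GATA element (GATAA, read on the minus strand), a hypoxia element core (ACGTG, on the minus strand) and an AP-1 element (TGACTNA, on the plus strand).
Edn1: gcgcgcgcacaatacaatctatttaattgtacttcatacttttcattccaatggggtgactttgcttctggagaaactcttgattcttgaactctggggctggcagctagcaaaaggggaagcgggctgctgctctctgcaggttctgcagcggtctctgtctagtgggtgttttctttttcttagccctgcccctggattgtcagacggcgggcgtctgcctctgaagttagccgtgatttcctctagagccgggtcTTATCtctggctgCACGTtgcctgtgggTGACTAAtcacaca
These matches begin at positions 9, 22 and 37, counting the RefSeq start as 1, and they do not overlap. The positions hold for this annotated start only, and where transcription began in these cultures was not tested. Searched on both strands, GATAA was in 25.3%, ACGTG in 19.7% and TGACTNA in 13.9% of the 32544 distinct windows of this length. TATAAA, in 13.6% of windows, had no match in this window, and bases beyond it were not searched. A match describes letters and does not show that a factor was bound.

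Of 14 transcription factor genes known to act on Edn1, all were tested, 4 rose, 3 fell and 7 did not pass, with a median log2 fold change of -0.08. Of the 3 AP-1 subunit genes listed, Junb was not called (0.48 ± 0.15, edgeR adjusted p = 0.0552). The others went up, Fos from a male level of 6.59 ± 0.509 CPM to a female level of 32.5 ± 0.592 CPM (edgeR adjusted p = 3.23e-06) and Jun from 105 ± 17.9 to 242 ± 5.18 CPM (adjusted p = 0.000158). Hif1a, the oxygen-regulated subunit of the hypoxia factor, rose by 0.61 ± 0.13 and Klf4 by 0.67 ± 0.14. Gata2, the endothelial GATA factor, went down from a male level of 47.7 ± 3.04 CPM to a female level of 22.5 ± 1.21 CPM (adjusted p = 0.000128). Pparg, a lipid-sensing nuclear receptor, fell by 1.49 ± 0.17 and the flow-responsive Klf2 by 1.06 ± 0.18 on the log2 scale. Genes for factors with an element in this window differed in both directions. Edn1 was too scarce for a difference to be detected, and any link of these factors to its level was not tested.

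Converting enzymes came next in the path. Ece1 (chromosome 4, 137862237 to 137965229) encodes the main enzyme that releases endothelin-1 from its precursor. The female libraries stood at 125, 113 and 107 CPM and the male libraries at 122, 131 and 96.6 CPM. The sexes overlapped, with male replicate 3 lowest. The log2 fold change was -0.02 ± 0.13 with a 95% interval of -0.32 to 0.28 (edgeR adjusted p = 0.932), and its sign turned when female replicate 3 (0.02), male replicate 1 (0.01) or male replicate 2 (0.06) was left out. RefSeq lists 4 start windows for Ece1, which the gene-level counts do not separate.

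Ece2 (chromosome 16, 20629828 to 20646485), a relative with an acidic optimum, was scarce. It had 39, 23 and 12 counts in female and 47, 82 and 54 in male libraries, or 1.20 ± 0.640 and 2.99 ± 0.677 CPM (SD, n = 3). Every female library lay below every male one, and female replicate 3, at 0.512 CPM, was lowest of all. The log2 fold change was -1.33 ± 0.44 with an unadjusted p of 0.0145 and an edgeR adjusted p of 0.0699, so Ece2 was not called. It was called without female replicate 1 (edgeR adjusted p = 0.0494), without male replicate 3 (0.0278), with DESeq2 (0.0240), limma-voom with quality weights (0.00181), no filter (edgeR, 0.00818) and the replicate number as a block (edgeR, 0.0495). The gene model Gm49333, on the same strand, covers 57.5% of the exon bases of Ece2 and had 0 counts in every library, and the labels do not say how reads in shared exons were counted.

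**Figure D2:**
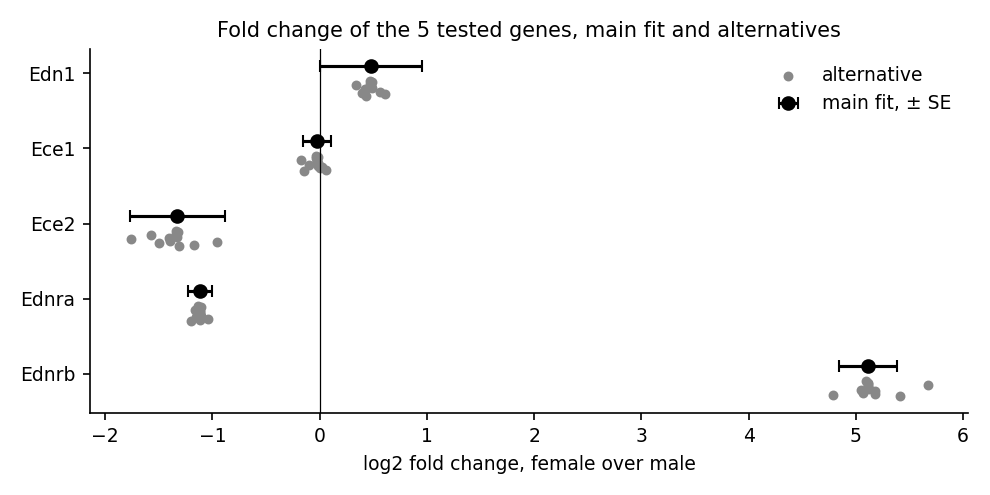
Log2 fold change of female over male for the 5 tested genes. Black points are the main fit with its SE, and grey points are the alternative settings (12 for Edn1 and Ece2, 13 for the others), which stay on the same side of 0 for all genes but Ece1.

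The receptors differed in opposite directions. Their start windows (250 bases before to 50 after the RefSeq start, GRCm38.p6) are shown side by side for that reason, Ednra at chr8:77724403-77724702 and Ednrb at chr14:103843652-103843951, both read on the minus strand. Neither holds a match to the 4 motifs searched in Edn1, so no base is in capitals, which says only that these letters are not in these windows. The windows hold for these annotated starts only. On the minus strand the Ednrb gene begins at 103844402, upstream of its window, and where transcription began was not tested.
Ednra: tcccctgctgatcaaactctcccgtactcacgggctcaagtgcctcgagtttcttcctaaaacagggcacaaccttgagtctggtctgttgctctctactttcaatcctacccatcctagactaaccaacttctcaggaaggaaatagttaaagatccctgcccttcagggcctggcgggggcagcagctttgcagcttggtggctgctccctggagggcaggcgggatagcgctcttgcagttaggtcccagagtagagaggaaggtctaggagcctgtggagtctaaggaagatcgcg
Ednrb: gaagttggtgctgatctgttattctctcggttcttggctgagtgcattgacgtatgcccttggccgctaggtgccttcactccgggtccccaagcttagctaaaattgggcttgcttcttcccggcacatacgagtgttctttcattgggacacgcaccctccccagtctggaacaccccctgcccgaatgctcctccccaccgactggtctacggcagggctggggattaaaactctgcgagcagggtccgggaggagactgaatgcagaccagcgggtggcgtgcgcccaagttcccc
The Ednra window has 54.7% G and C with 8 CpG sites, and the Ednrb window 58.7% with 15, where the median of all windows is 53.0%. The ratio of observed to expected CpG was 0.357 for Ednra and 0.582 for Ednrb, against a median of 0.387.

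Ednra (chromosome 8, 77663031 to 77724464) encodes the A receptor. The female libraries stood at 103, 103 and 110 CPM and the male libraries at 252, 232 and 202 CPM. No female library reached the lowest male one, which was male replicate 3. Ednra fell by 1.12 ± 0.11 on the log2 scale in female, 2.17-fold (95% interval -1.37 to -0.86, edgeR adjusted p = 9.71e-05). It was called lower in female under all 13 alternatives run for this gene, with log2 fold changes from -1.20 to -1.04. Among all genes tested 5.71% had a lower fold change. The opposite-strand transcript 4933431K23Rik overlaps 1.66% of its exon bases and had 26 to 40 counts in female and 50 to 68 in male libraries, few beside the 1832 to 5254 counts of Ednra.

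Ednrb (chromosome 14, 103814625 to 103844402) encodes the B receptor. Counts were 579, 392 and 611 in female and 16, 9 and 18 in male libraries, or 26.4, 22.0 and 26.1 against 0.774, 0.397 and 1.02 CPM. The lowest female library, at 22.0 CPM, lay far above the highest male one, at 1.02 CPM. The log2 fold change was 5.11 ± 0.27 (95% interval 4.50 to 5.72, edgeR adjusted p = 1.79e-06), and 47 of all genes tested had a higher one, all of them called. From summed counts, 1582 against 43, the ratio was 35.5 with an exact 95% counting interval of 26.2 to 49.3. Spread was wider in male libraries, where the SD was 43.1% of the mean, than in female ones, at 9.85%. The call held under all 13 alternatives run for Ednrb, with log2 fold changes from 4.78 without male replicate 2 to 5.68 with limma-voom and quality weights. In bulk samples, a larger share of cells with a transcript and more transcript per cell cannot be told apart.

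**Figure D3:**
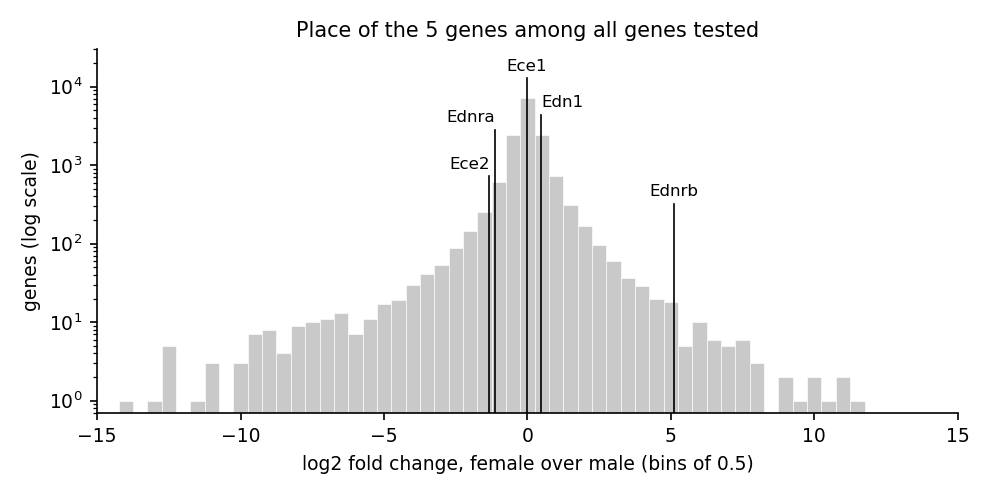
Number of genes (log axis) by log2 fold change of female over male in bins of 0.5, for the 14932 genes tested, with the 5 endothelin genes marked by lines. Ednrb lies in the upper tail, with 47 genes above it, while Edn1 and Ece1 lie in the bulk.

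Markers of other cells that use these receptors were read in the same libraries. Of 12 markers of pigment, Schwann and neural crest cells, where the B receptor is known, Dct, Tyr, Tyrp1 and Foxd3 had 0 counts in all 6 libraries. Sox10 had 6 counts in female replicate 2 and 0 in the other 5. Their summed level was 57.1 to 60.1 CPM in female against 41.9 to 49.2 CPM in male libraries, most of it Mitf (43.2 ± 1.16 and 32.4 ± 4.02 CPM). Of the 5 tested, Mitf and Kit rose, Erbb3 fell and 2 did not pass. The summed endothelial markers were 56.3 to 66.6 CPM in female against 62.9 to 83.5 CPM in male libraries, most of it Flt1. The 3 tested endothelial markers Flt1, Pecam1 and Egfl7 were not called (edgeR adjusted p = 0.244, 0.626 and 0.0622). Smooth muscle, known for the A receptor, was represented by Acta2 at 3.23 ± 0.749 CPM in female against 20.3 ± 6.01 CPM in male libraries (edgeR adjusted p = 7.6e-05), and Myh11 stayed at 0.147 and 0.138 CPM. Of the same list Itga8, an integrin gene, rose from 4.89 ± 1.49 to 15.9 ± 0.927 CPM (adjusted p = 0.000465), and Synpo2, an actin-binding protein gene, rose by 1.47 ± 0.40 (adjusted p = 0.0285). The 9 smooth muscle markers summed to 137 to 138 CPM in female against 147 to 180 CPM in male libraries. Most of this was Smtn (112 ± 2.04 and 129 ± 12.6 CPM), which was not called. Of the 6 smooth muscle markers tested, 2 were higher, 1 lower and 3 not called. Of 5 pericyte markers tested, Rgs5 rose, Pdgfrb fell and 3 did not pass. Pdgfrb, the receptor gene for PDGF-B, had 364, 365 and 327 CPM in female and 867, 910 and 715 in male libraries, with no overlap (-1.24 ± 0.13, adjusted p = 9.19e-05). All 9 fibroblast markers were tested, and 6 rose, 0 fell and 3 did not pass. Among them Lum changed most, at 413 ± 12.7 CPM in female against 14.3 ± 2.48 CPM in male libraries (4.85 ± 0.15, edgeR adjusted p = 1.85e-07). The part of these differences, those of the fibroblast markers included, in the receptor levels was not tested.

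Set against each other within a library, the receptors do not depend on library scaling. Ednrb made up 24.7, 21.5 and 23.3% of receptor reads per kilobase in the female libraries and 0.392, 0.219 and 0.646% in the male libraries. The A receptor transcript was thus the more abundant in all 6 libraries, by 3.04- to 3.64-fold in female and 154- to 455-fold in male libraries. On the log2 scale the balance of Ednrb over Ednra was -1.73 ± 0.130 in female and -7.97 ± 0.763 in male libraries (SD, n = 3), a difference of 6.25. An exact two-sided permutation test gave p = 0.1, the smallest that 3 against 3 can give. Summed over both receptors the level was 25.1 ± 1.14 RPKM in female and 42.0 ± 4.58 in male libraries (exact two-sided permutation p = 0.1), since the gain in Ednrb was smaller in RPKM than the loss in Ednra.

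**Figure D4:**
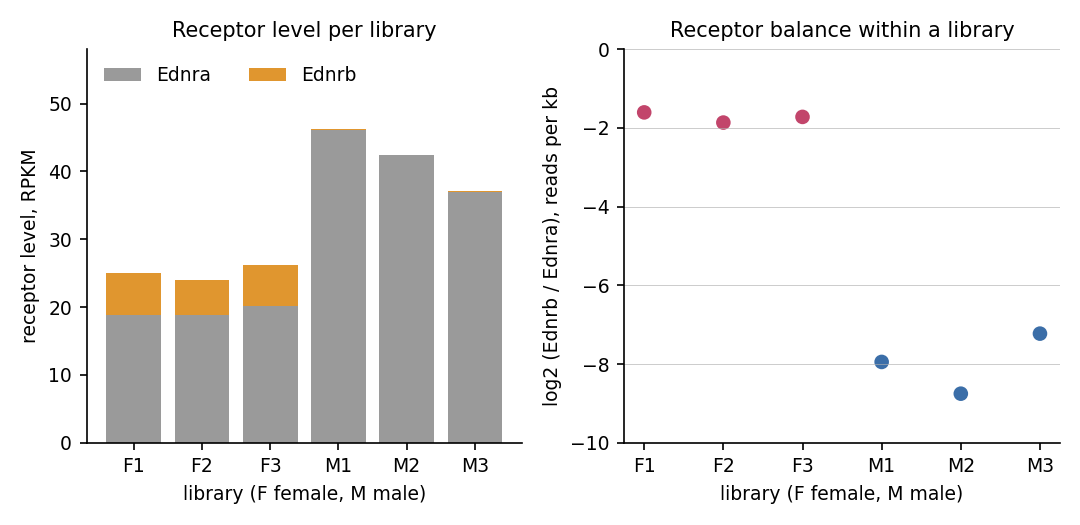
Left, level of Ednra and Ednrb in each library as stacked RPKM (F female, M male, numbers are replicates). Right, log2 of Ednrb over Ednra reads per kilobase in each library, which lies between -1.86 and -1.60 in female and between -8.75 and -7.23 in male libraries.

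Compared per length, the order of the genes differed between the sexes. In male libraries Ednra led at 41.8 ± 4.62 RPKM, above Ece1 at 22.0 ± 3.37 RPKM. In female libraries Ece1 (21.6 ± 1.74 RPKM) and Ednra (19.3 ± 0.758 RPKM) lay close together, with Ednra the higher of the 2 in female replicate 3 only. Ednrb came next in every female library at 5.83 ± 0.574 RPKM and was last or next to last in every male library at 0.172 ± 0.0740 RPKM. Edn1 (0.321 ± 0.0359 RPKM in female, 0.228 ± 0.0350 in male) and Ece2 (0.234 ± 0.125 and 0.585 ± 0.132) stood at the low end, and in female libraries their values overlapped. The RPKM of Ece2 divides by its full length, including exons shared with Gm49333. It would be too low if reads in those exons were left out of the count. Among genes with a count, Ednra lay above 89.0% in female and 95.3% in male libraries, and Ednrb above 71.1% and 30.2%. The ligand and the receptors were thus far apart, with Ednra 60.0 times the level of Edn1 per length in female and 183 times in male libraries.

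Genes whose log2 CPM followed each endothelin gene over the 6 libraries were sought by Pearson's r, given here without a test because the libraries share the split by sex and their depth. Closest to Ednra were Pdk4, a kinase that restrains pyruvate use (r = 1.00, 14.8 CPM in female against 32.3 CPM in male libraries), the adhesion gene Nectin3 and the kinase gene Dclk1. Closest to Ednrb were Pafah2 (0.999), Trmt1l (0.998) and the RNA-binding protein gene Rbpms (0.997). These moved far less than Ednrb, with log2 fold changes of 0.59, 0.38 and 1.01. For Ece1 they were the GABA receptor gene Gabbr1 (0.995) and Zswim8 (0.995). For Edn1 they were Znrf1 (0.991), Frmd8 (0.990) and Rad54l (0.987), and for Ece2 Cryl1 (0.996), Bcas3 (0.991) and Kif26a (0.989), where low counts make such an r weak.

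Of 68 other genes of the pathway in 5 lists, 59 were tested, 10 rose, 13 fell and 36 did not pass. That is 39.0% called beside 18.3% of all genes tested, with medians of -0.12 and -0.01 in log2 fold change. Without male replicate 3 the counts were 15 and 25, where 2508 of all genes were higher and 2543 lower, and without female replicate 1 they were 5 and 11, where 989 of all genes were higher and 986 lower. With all libraries, 1446 of all genes were higher and 1287 lower. The lists were drawn up with results on some of these genes known, so neither the share called nor the direction is independent evidence.

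**Figure D5:**
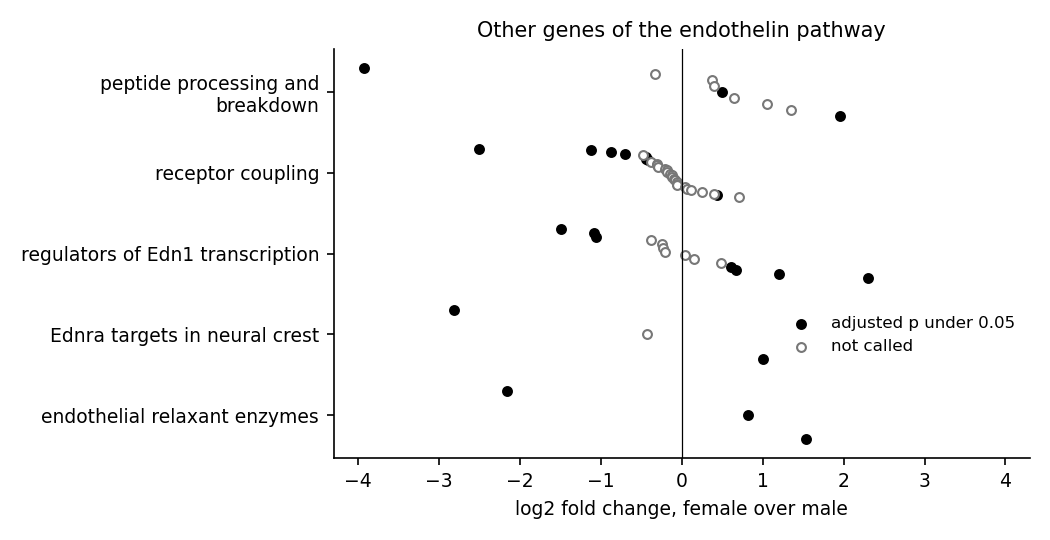
Log2 fold change of female over male for the tested genes of 5 pathway lists, filled where the adjusted p was under 0.05. Called genes lie on both sides of 0 in every list. Of 30 receptor coupling genes tested, 1 was called higher and 7 lower, where 9.68% and 8.62% of all genes tested were.

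Of 12 genes for peptide processing and breakdown, 9 were tested, 2 rose, 1 fell and 6 did not pass. Of 4 proprotein convertase genes tested, Pcsk6 rose, Pcsk5 fell, and Furin and Pcsk7 were not called. Pcsk6 had 16.4, 14.1 and 17.5 CPM in female and 4.64, 5.12 and 2.56 in male libraries, with no overlap (log2 fold change 1.95 ± 0.25, edgeR adjusted p = 0.000388). Pcsk5 had 1 to 5 counts in female and 15 to 48 in male libraries (-3.92 ± 0.69, adjusted p = 0.00322), and its log2 fold change was -4.96 without female replicate 3, which held 5 of its 7 female counts. Furin, the abundant enzyme of the first cut, averaged 332 ± 24.1 CPM in female against 253 ± 29.2 CPM in male libraries (0.39 ± 0.12, adjusted p = 0.0520), and Pcsk7 had a log2 fold change of -0.33 ± 0.12 (adjusted p = 0.103). Mmp2, a matrix protease that also cuts the precursor, rose by 0.50 ± 0.10 (adjusted p = 0.00740, 0.0538 without female replicate 1 and 0.0608 without female replicate 2).

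Of 31 receptor coupling genes, 30 were tested, 1 rose, 7 fell and 22 did not pass, with a median log2 fold change of -0.16. Gnai1, an inhibitory G protein subunit, went from a male level of 12.6 ± 1.10 CPM to a female level of 2.21 ± 0.449 CPM (edgeR adjusted p = 2.44e-05). Arrb1, which takes activated receptors off the surface, fell by 1.12 ± 0.19 (adjusted p = 0.00281) and the protein kinase C gene Prkca by 0.87 ± 0.18 (adjusted p = 0.00780). Plcb3, a phospholipase that passes on the receptor signal, fell by 0.42 ± 0.09 (adjusted p = 0.0112), and its call was lost without any 1 of the female libraries or male replicate 2 (0.0555 to 0.0686). The gene that rose was Rgs5 (0.44 ± 0.12, adjusted p = 0.0314), which shortens G protein signals and is also the pericyte marker given above. The Gq subunit gene Gnaq averaged 87.8 ± 5.05 CPM in female against 101 ± 22.0 CPM in male libraries and was not called (-0.21 ± 0.16, adjusted p = 0.433).

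Of 7 genes that the A receptor turns on in facial neural crest, 3 were tested, 1 rose, 1 fell and 1 did not pass. Mef2c rose by 1.00 ± 0.25 (edgeR adjusted p = 0.0204, and 0.0746, 0.105 and 0.0678 without female replicate 1, female replicate 3 or male replicate 2). Gata3 went from a male level of 2.70 ± 0.674 CPM to a female level of 0.372 ± 0.0945 CPM (adjusted p = 0.00108). Hand2 was not called (-0.43 ± 0.46, adjusted p = 0.590), and Dlx3 and Hand1 had 0 counts in all 6 libraries. Dlx6 had 0 counts in every female library against 9, 10 and 17 in the male ones. Dlx5 had 0 counts in every female library against 12, 5 and 0 in the male ones. Neither Dlx5 nor Dlx6 passed the filter on low counts.

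Of 4 enzymes that make relaxant mediators and related prostanoids, 3 were tested, 2 rose and 1 fell. Ptgs2, an inducible cyclooxygenase, went from a male level of 347 ± 55.5 CPM to a female level of 1007 ± 42.3 CPM (edgeR adjusted p = 3.82e-05), and Ptgs1 from 72.3 ± 4.15 to 128 ± 4.86 CPM (adjusted p = 0.000336). The prostacyclin synthase gene Ptgis fell from a male level of 565 ± 93.1 CPM to a female level of 126 ± 11.0 CPM (adjusted p = 6.97e-06). Nos3, the endothelial nitric oxide synthase, had 7, 6 and 15 counts in female and 1, 1 and 0 in male libraries and did not pass the filter on low counts.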

How the data were processed

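RNA-seq counts of 6 libraries, 3 female and 3 male, were grouped by the sex in the sample titles. The authors deposited whole-number read counts per gene without normalization, with a gene length in bases, and per the submitters' processing notes used HISAT2 2.0.5 and featureCounts 1.5. Neither the genome build nor the strand setting is given in the sources used here. In GENCODE M21 (GRCm38), 99.8% of the gene identifiers were found, 98.3% of them at identical coordinates, all 7 endothelin genes included. Coordinates are those of the deposited table.

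The 54532 genes were filtered with filterByExpr (minimum count 10), which left 14932, scaled by TMM and tested with the quasi-likelihood F test of edgeR 4.0.16 in R 4.3.3, with Benjamini-Hochberg adjustment over all of them. The SE is the fold change over the root of F. CPM uses library totals times TMM factors, and RPKM divides it by gene length. The receptor balance added 0.5 counts to each gene. On simulated counts (14614 genes) 69.1% of the 97 genes with a 2-fold change and 89.0% of the 100 with a 4-fold change were recovered, with 10 false among 166 calls. Changed genes there were far fewer than the 2733 called in these data, so these rates are no estimate of power here. Libraries of a sex differed by more than sampling noise (chi-square per degree of freedom 7.43 to 70.8). Promoter windows are from RefSeq, GRCm38.p6.

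The members and lists were chosen with earlier results of these data known. Named genes were the 7 members, up to 4 of each pathway list with the smallest p, chosen defining markers, the 3 genes most like each tested member (1 of those for Ece1 is not reported here) and genes overlapping a member. Hif1a, Klf4, Klf2, Rgs5, Gnaq, Nos3, Dlx3, Dlx5, Dlx6, Hand1, Mitf, Kit, Erbb3, Flt1 and Egfl7 were chosen after their values were seen. So were Junb, Pcsk7, Itga8, Synpo2, Smtn, Lum, Pdgfrb, Krt18, Msln, Upk3b, Lyz2 and the markers at 0 counts. Alternatives were other scalings, DESeq2 1.42.0, limma-voom (limma 3.58.1), other filters, a block for the replicate number, omission of each library, and an adjusted p under 0.01. Markers of pericytes, mesothelium, macrophages and epithelium were also read. Their summed levels were 1700 to 1738, 7.48 to 11.2, 12.6 to 18.1 and 1.11 to 1.74 CPM in female and 1637 to 2041, 2.08 to 3.98, 6.29 to 10.3 and 0.968 to 2.29 CPM in male libraries. Most of the female mesothelial sum was Krt18 (7.50 CPM, 0.504 in male). Msln and Upk3b had 0 counts in female libraries and 17 and 18 summed over the male ones. Most of the macrophage sum was Lyz2 (12.7 and 5.22 CPM), and Ptprc and C1qa had 0 counts in all 6.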

Additional observations from a re-analysis of the deposited data

How the results depend on the processing

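Ednra and Ednrb kept their direction and call under all 13 alternatives run for each, and Edn1 stayed without a call under its 12, with adjusted p of 0.499 to 0.761. Members lower in female were 2, with Ece2 added, by DESeq2, limma-voom, no filter and the replicate block, and 1 to 2 with a library left out. Ece1 had log2 fold changes of 0.02 without female replicate 3, 0.01 without male replicate 1 and 0.062 without male replicate 2, on the other side of 0, in a range of -0.14 to 0.062 over the libraries left out. Limma-voom with quality weights called 17 pathway genes higher and 27 lower, and 3305 of all genes higher and 3289 lower. At an adjusted p under 0.01 the main edgeR fit called 900 of all genes higher and 835 lower. With 1 library left out there were 5 to 15 pathway genes higher, 9 to 25 lower, and 967 to 2508 of all genes higher and 903 to 2543 lower (highest each time when male replicate 3 was the one omitted; the cause was not tested). Of the 294 fits of single named genes, 270 kept their side of the threshold and direction, 12 gained a call, 9 lost it and 3 turned sign. RLE and upper quartile scaling moved the median of all genes by -0.01 and 0.01 in log2. The receptor balance differed by 5.86 to 6.62 with a library left out, where a smallest p of 0.2 was possible.

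Replicate numbers were not shown to pair the libraries, since the correlation between libraries of the same number, after removal of each sex's mean, was 0.206, -0.00405 and 0.152. The best male match was the own number for female replicates 1 and 3, and male replicate 3 for female replicate 2. With the replicate block 1619 genes were higher and 1449 lower against 1446 and 1287 without it, and of the pathway genes 14 were higher and 15 lower. Depth limits Edn1, Edn2, Edn3 and Ece2 most, each with under 100 counts in every library.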
